A study of Mus musculus with 32 samples.

Results

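The constitutive proteasome subunit genes were followed through mammary tumour progression in mouse tissue regions cut out by laser. Members were the genes whose symbols run Psma, Psmb, Psmc or Psmd followed by a number, without the immune and thymus forms Psmb8, Psmb9, Psmb10 and Psmb11, and with a mean of at least 5 CPM (read counts scaled to library size) over all 32 libraries. Of the 24454 gene IDs in the count table, 24374 had a symbol, 35 symbols matched the pattern and 34 passed the minimum. Core particle genes made up 14 of them (Psma1 to Psma7 and Psmb1 to Psmb7) and regulatory particle genes 20 (Psmc1 to Psmc6 and Psmd1 to Psmd14). Psma8, the alpha subunit known from male germ cells, fell outside with a mean of 0.776 CPM, a count in 7 libraries and none in 25. Psmd13 at 15.5 CPM and Psmd10 at 18.5 CPM were the members nearest above the minimum.

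The proteasome is the protease complex that degrades most short-lived and misfolded proteins of a cell once they carry ubiquitin chains. Its core particle is a barrel in which rings of alpha subunits gate the entry and rings of beta subunits enclose the cutting sites, carried by Psmb5 (chymotrypsin-like), Psmb6 (caspase-like) and Psmb7 (trypsin-like). The regulatory particle caps the barrel: its base holds a ring of ATPases (Psmc) that unfold substrates, the scaffold proteins Psmd1 and Psmd2 and the ubiquitin receptor Psmd4, while its lid holds the deubiquitinase Psmd14. Psmd5, Psmd9 and Psmd10, also matched by the pattern, are chaperones that help to assemble the base. Tumour cells are known for a high protein turnover, and proteasome genes are known to be transcribed together under Nfe2l1, which is made stable when proteasome activity drops.

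All animals were female mice with the MMTV-PyMT, R26-CBW and K8-CreERT2 alleles. The MMTV promoter drives the polyoma middle T oncogene in mammary epithelium, the keratin 8 promoter drives a tamoxifen-dependent Cre in luminal cells, and R26-CBW is the multicolour reporter that the Cre switches on. Every group carried all 3 alleles and the tamoxifen, given at 5 mg in week 5, so the normal gland came from tumour-prone, induced mice and not from wild-type mice. Regions were cut from 7 µm fixed frozen sections, and their polyadenylated RNA was amplified as cDNA before sequencing. The libraries comprised normal gland (n = 3), hyperplasia (n = 5), adenoma (n = 8), carcinoma (n = 9) and lung metastasis (n = 7). Most libraries were labelled with the reporter colour of the patch, but in normal gland 2 of the 3 libraries were pools, in colour and in place, and the third, library 18, was labelled tumour core. The design text gives n = 3, taken here as 3 animals, and no label says which animal a region came from. In every stage but normal gland there were more regions than animals, so regions shared animals, and p-values over regions are too small throughout.

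All 7 luminal epithelial markers (Krt8, Krt18, Krt19, Cdh1, Epcam, Cldn3 and Cldn4) had a count in all 32 libraries. Their summed level in CPM was 1072 to 1754 for normal gland, 1375 to 3330.0 for hyperplasia, 1495 to 3692 for adenoma, 1867 to 4369 for carcinoma and 1698 to 2754 for metastasis. Total counts ran from 2688611 to 19585351 per library, and detected genes from 10258 to 17667. Detected genes were fewest in hyperplasia 22, metastasis 42 and adenoma 51. Gene ID 100861531, without a symbol in the annotation table, took the largest share of counts in all 32 libraries, from 5.20% to 78.9% (metastasis 40). Scaled with edgeR's TMM factors, the effective library size ran from 3503527 counts (adenoma 51) to 23029154 counts (carcinoma 08). Counts are amplified reads and not molecules, so floors from counts cover counting error only. In such bulk regions, fewer cells of a type and less RNA per cell cannot be told apart.

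The promoters of Psmb5, Psmd9, Psma1 and Psma7 are shown because they carry the motifs by which proteasome genes are often discussed: an antioxidant response element core (TGACNNNGC), the kind of site bound by Nfe2l1 and Nfe2l2, and the CCAAT box bound by NF-Y. Psmb5 and Psmd9 held the first, Psma1 and Psma7 the second. Each run is the 200 bases before the RefSeq start in GRCm38.p6, read 5′ to 3′ on the gene's strand, with motif matches in capitals (CCAAT on the opposite strand reads ATTGG). The windows are chr14:54617996-54618195 (minus strand) for Psmb5, chr5:123227990-123228189 (plus) for Psmd9, chr7:114276117-114276316 (minus) for Psma1 and chr2:180042465-180042664 (minus) for Psma7.
Psmb5: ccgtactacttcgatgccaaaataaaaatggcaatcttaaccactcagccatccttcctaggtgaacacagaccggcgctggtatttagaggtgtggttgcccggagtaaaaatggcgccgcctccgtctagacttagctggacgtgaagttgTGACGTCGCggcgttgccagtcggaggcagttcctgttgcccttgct
Psmd9: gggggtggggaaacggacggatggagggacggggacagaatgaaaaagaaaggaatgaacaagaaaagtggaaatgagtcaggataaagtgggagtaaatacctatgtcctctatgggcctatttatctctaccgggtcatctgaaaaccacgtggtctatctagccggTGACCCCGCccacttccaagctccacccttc
Psma1: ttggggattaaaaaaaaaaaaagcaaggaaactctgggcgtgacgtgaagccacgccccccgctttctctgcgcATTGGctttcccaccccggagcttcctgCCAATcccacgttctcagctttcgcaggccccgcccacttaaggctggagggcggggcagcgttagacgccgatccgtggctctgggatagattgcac
Psma7: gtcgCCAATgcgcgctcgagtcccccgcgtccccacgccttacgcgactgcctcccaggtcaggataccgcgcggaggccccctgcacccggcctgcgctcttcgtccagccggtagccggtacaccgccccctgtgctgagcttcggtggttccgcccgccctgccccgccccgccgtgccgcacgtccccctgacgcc

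Promoter windows of 300 bases, 250 before and 50 from the start on, were found in RefSeq for 28 of the 34 members. Psmb1, Psmb2, Psmb7, Psmc3, Psmd3 and Psmd7 had none in the table. Searched on both strands, TGACNNNGC occurred in 5 of the 28 (17.9%), beside 12.4% of 32851 promoters of this length. The 5 were Psmb5 (47 to 39 bases before the start), Psmb6 (9 to 1), Psmd9 (31 to 23), Psmc6 (227 to 219, opposite strand) and Psmd12 (247 to 239, opposite strand). CCAAT occurred in 11 of the 28 (39.3%), beside 37.4% of all promoters. These shares count members, whereas the background counts single promoters. The 28 members had 30 promoters, of which 5 held TGACNNNGC and 11 held CCAAT, the latter slightly below the share of all promoters. No member held both motifs, which 4.37% of all promoters did. The motifs do not overlap in letters, and these matches are descriptions of the sequence in this window.

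Proteasome transcripts were detected in almost every region. All 14 core genes had a count in all 32 libraries, and so had 17 of the 20 regulatory genes (85%), beside 45.2% of the 12479 genes whose mean reached 5 CPM. Those genes are not matched for level. Their median was 25.6 CPM, against 121 CPM for the core and 63.1 CPM for the regulatory genes. Regulatory genes lacked a count only in libraries with few detected genes. Psmd10 had no count in adenoma 51 and metastasis 42, Psmd5 none in adenoma 51, and Psmd6 none in metastasis 42. There, 3 counts, the limit that a count of 0 allows, came to 0.856 CPM in adenoma 51 and 0.811 CPM in metastasis 42. Members with 10 or more counts numbered 29 in adenoma 51, 30 in metastasis 42, 31 in hyperplasia 22 and 32 to 34 in the other libraries.

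Core genes also varied less between regions of a stage than most genes did. The SD of log2(CPM + 1) within stages had a median of 0.93 over the core genes and 1.19 over the regulatory genes. It was 1.55 over all genes of 5 CPM or more and 1.19 over those of them with a count in every library. The last set has a median level of 52.6 CPM, against 121 CPM for the core and 63.1 CPM for the regulatory genes, so the sets also differ in how many counts stand behind each gene. Psmd7, a lid subunit (SD 0.60), Psma7 of the alpha ring (0.60) and the ATPases Psmc3 (0.61) and Psmc1 (0.61) varied least. Psmd5 (1.78), Psmd4 (1.66) and Psmd10 (1.62) varied most.

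Per kilobase of the longest principal transcript, the beta subunit with caspase-like activity and an alpha subunit led. Averaged over all libraries, Psma7 stood at 316 CPM per kb, Psmb6 at 302, Psma6 at 184, Psmb4 at 169, Psmb1 at 147 and Psma1 at 137 CPM per kb. The other catalytic subunits were lower, with Psmb7 at 86.9 and Psmb5 at 76.1 CPM per kb. At the low end stood the base chaperones Psmd5 at 6.52 and Psmd9 at 11.6 CPM per kb and the lid subunit Psmd13 at 7.81 CPM per kb. Without division by length, Psmd13 at 15.5 CPM and Psmd10 at 18.5 CPM were lowest. Whether reads scale with transcript length in these amplified libraries was not tested. The order per kb was much alike in all 5 stages. Over the 34 members, Spearman's rho between the stage means per kb ran from 0.85 to 0.95 (a description over genes that share libraries). The same transcript length divides a gene's mean in every stage, which by itself draws the orders together. The heat map of all members by library shows these levels by role and stage.

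**Figure D1:**
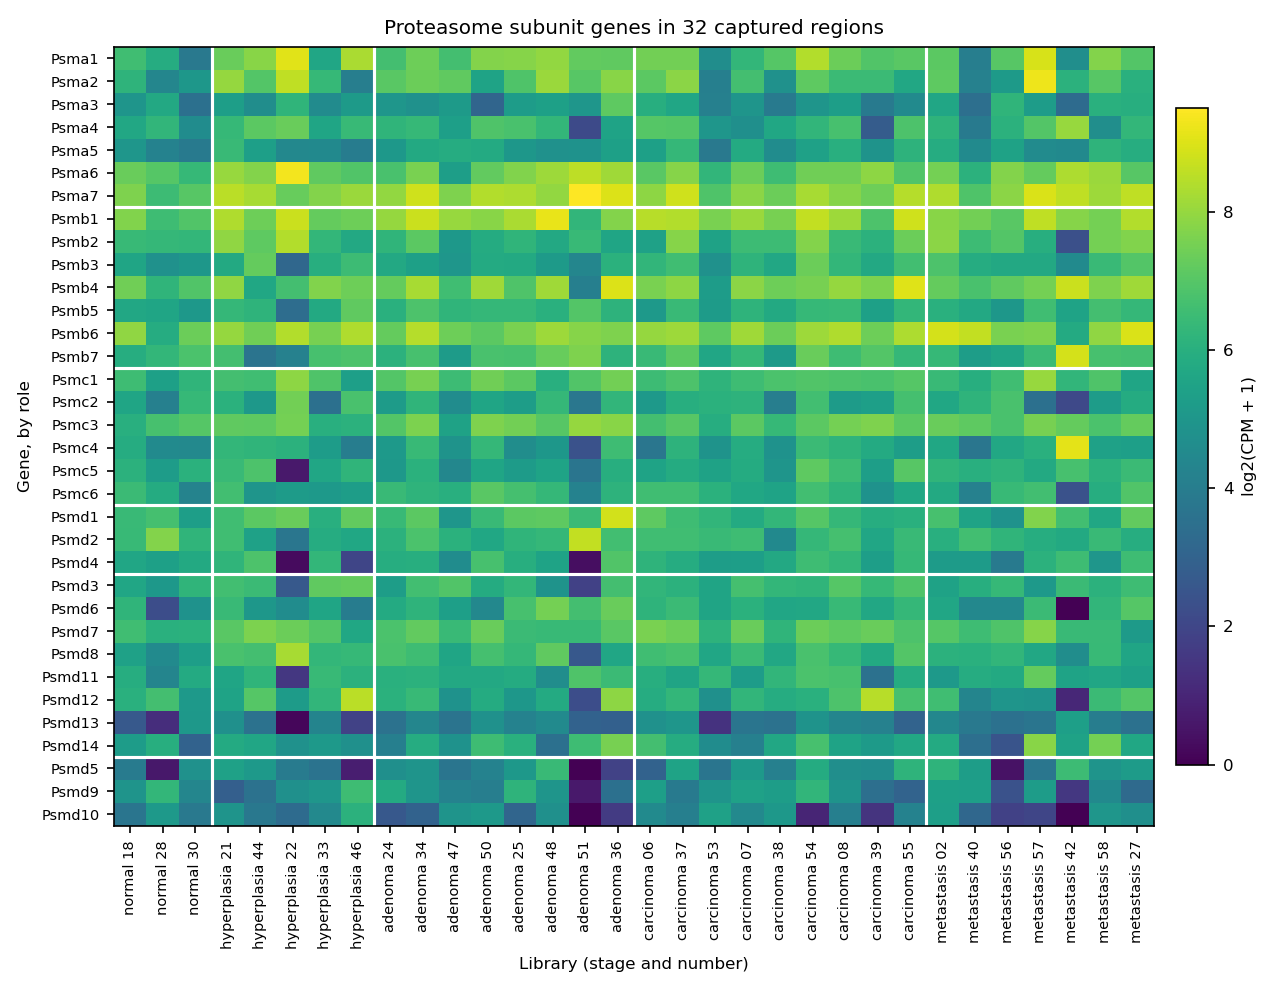
Level of each of the 34 members (rows, grouped by role and split by white lines) in each of the 32 libraries (columns, grouped by stage), as log2(CPM + 1) in colour. Members without a count appear in adenoma 51 (Psmd5 and Psmd10) and metastasis 42 (Psmd6 and Psmd10) only, and Psmb6 and Psma7 are bright in every stage.

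In the alpha ring, the mean level over all libraries was 165 CPM (from 13.3 to 546) for Psma1, 130.1 CPM (from 15.6 to 614) for Psma2, 38.1 CPM (from 7.58 to 140.3) for Psma3 and 78.3 CPM (from 3.43 to 260.5) for Psma4, with the lowest and highest library in parentheses. It was 40.3 CPM (from 13.5 to 86.1) for Psma5, 192 CPM (from 39.6 to 650.5) for Psma6 and 289 CPM (from 90.7 to 726) for Psma7. Values by library are given below in the order 18, 28 and 30 for normal gland and 21, 44, 22, 33 and 46 for hyperplasia, and as range and median for the larger groups. Gene positions are those of RefSeq in GRCm38.p6.

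Psma1 (chr7:114264550-114276116, minus strand) encodes an alpha ring subunit. Psma1 stood at 96.6, 57.8 and 13.3 CPM in the normal libraries and at 161, 222, 546, 48.6 and 315 CPM in hyperplasia. Adenoma libraries held Psma1 from 101 to 247 with a median of 158 CPM, carcinoma libraries from 24.1 to 337 with a median of 133 CPM and metastases from 15.6 to 484 with a median of 129.9 CPM. Normal library 30 was the lowest of all 32 and hyperplasia 22 the highest, and hyperplasia 33 lay within the normal range. Psma7 (chr2:180036367-180042464, minus strand) encodes the alpha subunit with the highest level per length. Psma7 stood at 202, 90.7 and 131 CPM in the normal libraries and at 365, 308, 156, 214 and 269.7 CPM in hyperplasia. Adenoma libraries held Psma7 from 201 to 726 with a median of 334 CPM, carcinoma libraries from 118 to 454 with a median of 231 CPM and metastases from 118 to 494 with a median of 327 CPM. The highest normal library, 18, lay above hyperplasia 22 and within the range of every tumour stage, so no stage was free of overlap with normal gland.

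Among the beta subunits without a cutting site, mean levels were 258 CPM (from 75.1 to 582) for Psmb1, 111 CPM (from 4.05 to 337) for Psmb2, 64.1 CPM (from 7.97 to 166) for Psmb3 and 200.5 CPM (from 16.3 to 524) for Psmb4. Psmb1 lies at chr17:15475721-15498276, minus strand. Psmb1 stood at 205, 92.3 and 119 CPM in the normal libraries and at 333, 169.7, 423, 153 and 171 CPM in hyperplasia. Adenoma libraries held Psmb1 from 75.1 to 582 with a median of 257 CPM, carcinoma libraries from 114 to 448 with a median of 279 CPM and metastases from 132 to 382 with a median of 221 CPM. The normal libraries overlapped all 4 tumour stages. Psmb2 lies at chr4:126677637-126709715, plus strand. Psmb2 stood at 82.8, 79.4 and 76.7 CPM in the normal libraries and at 240.2, 142, 337, 77.9 and 52.7 CPM in hyperplasia. Adenoma libraries held Psmb2 from 32.8 to 137 with a median of 64.8 CPM, carcinoma libraries from 42.8 to 219 with a median of 91.2 CPM and metastases from 4.05 to 230.2 with a median of 124 CPM. Its normal libraries were close together, within the range of every tumour stage, and metastasis 42 was far below the rest. Psmb3 lies at chr11:97703434-97713500, plus strand. Psmb3 stood at 47.4, 27.2 and 32.01 CPM in the normal libraries and at 53.3, 150.4, 7.97, 60.5 and 91.2 CPM in hyperplasia. Adenoma libraries held Psmb3 from 19.7 to 66.7 with a median of 46.95 CPM, carcinoma libraries from 27.1 to 166 with a median of 75.1 CPM and metastases from 22.4 to 124 with a median of 57.7 CPM. Hyperplasia held both a library below every other (22) and the second highest of all libraries (44). Psmb4 lies at chr3:94884324-94886958, minus strand. Psmb4 stood at 173, 73.4 and 122 CPM in the normal libraries and at 243, 49.9, 102, 205 and 167 CPM in hyperplasia. Adenoma libraries held Psmb4 from 16.3 to 516 with a median of 216 CPM, carcinoma libraries from 37.3 to 524 with a median of 196 CPM and metastases from 109 to 425 with a median of 183 CPM. Adenoma held both the lowest of all 32 libraries (51) and the second highest (36).

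The catalytic subunits differed in level and in evenness. Psmb5 (chr14:54614120-54617995, minus strand), the chymotrypsin-like subunit and the main site hit by proteasome inhibitor drugs, averaged 68.4 CPM (from 9.45 to 145). Psmb5 stood at 51.1, 46.5 and 32.2 CPM in the normal libraries and at 79.1, 70.9, 9.45, 53.6 and 145 CPM in hyperplasia. Adenoma libraries held Psmb5 from 64.04 to 123 with a median of 76.7 CPM, carcinoma libraries from 33.6 to 86.4 with a median of 70.9 CPM and metastases from 31.4 to 100.3 with a median of 64.1 CPM. Hyperplasia held both the lowest of all 32 libraries (22) and the highest (46). Psmb6 (chr11:70525324-70527858, plus strand), the caspase-like subunit, averaged 241 CPM (from 55.4 to 506). Psmb6 stood at 243, 58.1 and 163 CPM in the normal libraries and at 257, 174, 337, 186 and 334 CPM in hyperplasia. Adenoma libraries held Psmb6 from 137 to 345 with a median of 198 CPM, carcinoma libraries from 140.1 to 332 with a median of 273 CPM and metastases from 55.4 to 506 with a median of 243 CPM. Metastasis 42 and normal 28 were the lowest of all 32 libraries, and the 3 highest were metastases (27, 02 and 40). Psmb7 (chr2:38588046-38643952, minus strand), the trypsin-like subunit, averaged 101 CPM (from 11.7 to 469). Psmb7 stood at 59.95, 78.3 and 111 CPM in the normal libraries and at 101, 11.7, 17.1, 105 and 116 CPM in hyperplasia. Adenoma libraries held Psmb7 from 36.1 to 203 with a median of 106 CPM, carcinoma libraries from 35.5 to 159 with a median of 85.8 CPM and metastases from 38.1 to 469 with a median of 87.6 CPM. Metastasis 42 stood alone at the top, while hyperplasia 44 and 22 were the lowest.

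In the ring of ATPases, mean levels were 111 CPM (from 40.3 to 260.1) for Psmc1, 55.8 CPM (from 3.24 to 178) for Psmc2 and 138 CPM (from 43.2 to 254) for Psmc3. They were 63.3 CPM (from 4.28 to 559) for Psmc4, 61.5 CPM (from 0.569 to 139) for Psmc5 and 64.4 CPM (from 4.32 to 133) for Psmc6. Each of the 6 proteins uses ATP to pull substrates into the core. Psmc2 lies at chr5:21785275-21803787, plus strand. Psmc2 stood at 47.6, 16.4 and 81.9 CPM in the normal libraries and at 66.7, 32.7, 178, 10.5 and 108 CPM in hyperplasia. Adenoma libraries held Psmc2 from 12.6 to 78.9 with a median of 42.7 CPM, carcinoma libraries from 15.6 to 102 with a median of 60.7 CPM and metastases from 3.24 to 108 with a median of 49.1 CPM. The range of every tumour stage included the middle one of the normal libraries. Psmc4 lies at chr7:28041702-28050092, minus strand. Psmc4 stood at 58.2, 22.6 and 21.3 CPM in the normal libraries and at 78.2, 73.01, 68.6, 36.9 and 15.2 CPM in hyperplasia. Adenoma libraries held Psmc4 from 4.28 to 94.1 with a median of 32.5 CPM, carcinoma libraries from 12.2 to 89.4 with a median of 55.7 CPM and metastases from 12.2 to 559 with a median of 49.9 CPM. Leaving metastasis 42 aside, the highest metastasis stood at 64.3 CPM, within the range of the other stages.

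The base scaffold genes Psmd1 and Psmd2 averaged 108 CPM (from 27.7 to 457) and 86.6 CPM (from 12.3 to 398), and the ubiquitin receptor Psmd4 56.7 CPM (from 0.228 to 119). Psmd1 lies at chr1:86064619-86139295, plus strand. Psmd1 stood at 85.1, 103 and 39.2 CPM in the normal libraries and at 95.2, 139, 160.3, 63.2 and 147 CPM in hyperplasia. Adenoma libraries held Psmd1 from 30.7 to 457 with a median of 113 CPM, carcinoma libraries from 55.6 to 141 with a median of 77.8 CPM and metastases from 27.7 to 208 with a median of 96.7 CPM. Adenoma 36 was far above the other adenomas. Psmd2 lies at chr16:20651122-20663414, plus strand. Psmd2 stood at 84.4, 212 and 73.3 CPM in the normal libraries and at 95.6, 42.6, 12.3, 58.9 and 49.5 CPM in hyperplasia. Adenoma libraries held Psmd2 from 50.2 to 398 with a median of 76.8 CPM, carcinoma libraries from 21.6 to 103 with a median of 86.1 CPM and metastases from 54.3 to 98.00 with a median of 62.97 CPM. Its 2 highest values came from adenoma 51 and normal 28, which lie in different stages. Psmd4 lies at chr3:95032688-95042614, minus strand. Psmd4 stood at 48.7, 41.7 and 54.2 CPM in the normal libraries and at 74.3, 115, 0.228, 76.7 and 2.96 CPM in hyperplasia. Adenoma libraries held Psmd4 from 0.285 to 119 with a median of 60.1 CPM, carcinoma libraries from 37.8 to 93.9 with a median of 58.8 CPM and metastases from 13.9 to 93.8 with a median of 36.1 CPM. Hyperplasia 22 and adenoma 51 lay under the level of 3 counts. The normal libraries were close together, within the wider range of every tumour stage.

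Lid genes averaged 75.2 CPM (from 2.57 to 154) for Psmd3, 63.01 CPM (from 0 to 181) for Psmd6, 119 CPM (from 35.1 to 221) for Psmd7 and 80.5 CPM (from 5.14 to 302) for Psmd8. The other lid genes averaged 60.8 CPM (from 1.94 to 150.4) for Psmd11, 85.2 CPM (from 1.08 to 368) for Psmd12, 15.5 CPM (from 0.114 to 40.5) for Psmd13 and 59.4 CPM (from 4.56 to 227) for Psmd14. The lid holds the enzyme that strips ubiquitin chains from substrates, Psmd14, and otherwise structural subunits. Psmd14 lies at chr2:61711694-61800376, plus strand. Psmd14 stood at 37.2, 61.3 and 6.98 CPM in the normal libraries and at 55.2, 48.2, 27.3, 34.3 and 26.5 CPM in hyperplasia. Adenoma libraries held Psmd14 from 10.4 to 186 with a median of 61.5 CPM, carcinoma libraries from 16.5 to 106 with a median of 50.4 CPM and metastases from 4.56 to 227 with a median of 49.5 CPM. Its stages overlapped, with the highest values in metastasis 57 and adenoma 36. Psmd8 lies at chr7:29174187-29180673, minus strand. Psmd8 stood at 41.9, 22.6 and 39.4 CPM in the normal libraries and at 109.8, 101, 302, 76.7 and 80.6 CPM in hyperplasia. Adenoma libraries held Psmd8 from 5.14 to 144 with a median of 86.4 CPM, carcinoma libraries from 48.02 to 125 with a median of 88.4 CPM and metastases from 24.05 to 83.7 with a median of 65.3 CPM. All 5 hyperplasia and all 9 carcinoma libraries lay above the 3 normal ones (as for 1.35% and 0.894% of all genes), whereas adenoma and metastasis overlapped them. Psmd12 lies at chr11:107479528-107498036, plus strand. Psmd12 stood at 64.7, 101 and 34.5 CPM in the normal libraries and at 45.3, 128, 36.3, 75.8 and 368 CPM in hyperplasia. Adenoma libraries held Psmd12 from 3.71 to 235 with a median of 55.7 CPM, carcinoma libraries from 26.2 to 355 with a median of 74.9 CPM and metastases from 1.08 to 122 with a median of 30.3 CPM. One library stood well above the others in hyperplasia (46), in adenoma (36) and in carcinoma (39).

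The base chaperones were the least abundant group, with means of 28.7 CPM (from 0 to 91.1) for Psmd5, 30.2 CPM (from 0.571 to 93.6) for Psmd9 and 18.5 CPM (from 0 to 67.8) for Psmd10. Psmd9 lies at chr5:123228190-123250126, plus strand. Psmd9 stood at 29.4, 77.2 and 19.7 CPM in the normal libraries and at 6.31, 11.1, 26.1, 30.6 and 93.6 CPM in hyperplasia. Adenoma libraries held Psmd9 from 0.571 to 70.9 with a median of 23.8 CPM, carcinoma libraries from 7.16 to 75.3 with a median of 29.5 CPM and metastases from 1.89 to 40.9 with a median of 21.6 CPM. Hyperplasia 46 and normal 28 were the highest, and the stages overlapped. Genes that overlap members on the genome were low where the table held them. The largest was 3110056K07Rik at Psma3 with a mean of 7.32 CPM, and Htr2b at Psmd1 stood at 3.08 CPM. The sources used here do not say whether counting used strand.

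Under TMM scaling most proteasome genes had higher levels in hyperplasia than in normal gland, and none passed the test. The fitted log2 fold change was above 0 for 29 of the 34 members, 13 of 14 core and 16 of 20 regulatory. Its median was 0.87 over the core genes, 0.40 over the regulatory genes and 0.00 over all genes tested. In edgeR's quasi-likelihood test with Benjamini-Hochberg adjustment, 0 of 34 members were called at an adjusted p of 0.05, beside 0% of the 19907 genes tested. Unadjusted p lay under 0.05 for 4 members (11.8%), beside 12.6% of all genes. DESeq2 and limma voom called 0 members as well, beside 2.43% and 0.527% of genes.

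The sign count is read against genes that are detected as widely. Of genes with a count in all 32 libraries, 73.9% had a log2 fold change above 0 in hyperplasia versus normal gland. Of the members among them 26 of 31 did (83.9%). The median over all genes with a count in every library was 0.56, below the core median and above the regulatory median given before. The counts relative to a median that follow use all genes tested instead. With DESeq2 size factors the median of all genes moved to -0.35. Relative to 0, 23 members were then higher (12 core and 11 regulatory), and relative to that median 29 were. With log2 of the total count as a covariate, an alternative added after the data were seen, 26 were higher than 0 and 24 higher than the median of all genes (0.10). With detected genes as the covariate instead, 29 were above 0, but 20 were above the median of all genes (0.19), so the count above that median depends on this covariate. Leaving out each library in turn gave 26 to 30 above 0 and 24 to 30 above the median of all genes.

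By role, and under TMM scaling, the alpha ring had 7 of 7 genes above 0 in hyperplasia versus normal gland, with a median log2 fold change of 1.03. The beta ring had 6 of 7 (median 0.74), the ATPases 5 of 6 (0.48), the scaffold and receptor 2 of 3 (0.16), the lid 7 of 8 (0.56) and the base chaperones 2 of 3 (0.51). With DESeq2 size factors the alpha ring had 6 of 7, the beta ring 6 of 7, the ATPases 3 of 6, the scaffold and receptor 1 of 3, the lid 6 of 8 and the base chaperones 1 of 3. Psma1 had the smallest p: 259 ± 187 CPM (SD, n = 5) against 55.9 ± 41.7 CPM (SD, n = 3), a log2 fold change of 2.21 (SE 0.78) with an edgeR adjusted p of 0.269. Psmd8 followed at 134 ± 95.1 against 34.6 ± 10.5 CPM, a log2 fold change of 1.95 (SE 0.72) and the same adjusted p of 0.269. Psmd8 was the 1 member whose groups did not overlap (2.94% of members, beside 1.35% of genes that were higher without overlap). Psma2 (log2 fold change 2.09, adjusted p 0.317) and Psma6 (1.18, adjusted p 0.388), also of the alpha ring, completed the 4 with unadjusted p under 0.05. The scaffold gene Psmd2 went the other way, with 51.8 ± 30.1 CPM against 123 ± 77.2 CPM, a log2 fold change of -1.25 (SE 0.64) and an adjusted p of 0.406. Without normal 28 its log2 fold change was -0.60. Standard errors over the members ran from 0.48 to 1.39, so changes of the size seen for most members were not detectable at this spread.

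Carcinoma was compared with the same 3 normal libraries, so the 2 comparisons share their controls. All 14 core and 17 of 20 regulatory genes had log2 fold changes above 0 in carcinoma versus normal gland, with medians of 0.74 and 0.47 beside 0.10 over all genes. The edgeR test called 0 of 34 members, beside 0.00502% of genes, and 1 member (2.94%) had an unadjusted p under 0.05, beside 8.23% of genes. DESeq2 and limma voom called 0 members, beside 0.889% and 1.59% of genes. Among genes with a count in all libraries 74.3% were higher, and of the members among them 29 of 31 (93.5%) were. The median of that wider set was 0.45, near the regulatory median of 0.47 and below the core median of 0.74. With DESeq2 size factors, which moved the median of all genes to -0.31, 21 members were above 0 (11 core and 10 regulatory) and 29 above that median. With log2 of the total count as a covariate 25 were above 0 and 21 above the median of all genes (0.14), against 30 without it. Leaving out 1 library at a time gave 25 to 31 above that median, with 25 without normal 18 and without normal 30.

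The member of smallest p in carcinoma versus normal gland was Psmb1, at 288 ± 109.5 CPM (SD, n = 9) against 139 ± 58.99 CPM (SD, n = 3), a log2 fold change of 1.05 (SE 0.48) and an edgeR adjusted p of 0.576. Psmd8 was again free of overlap, the 1 such member (2.94%, beside 0.894% of genes), with 84.2 ± 28.02 CPM, a log2 fold change of 1.28 (SE 0.66) and an adjusted p of 0.614. Psmd2 was the member of smallest p on the lower side, with a log2 fold change of -0.65 (SE 0.57, adjusted p 0.807), which came to -0.0026 without normal 28. All 7 alpha and 7 beta genes, 6 of 6 ATPases and 8 of 8 lid genes were above 0, with medians of 0.82, 0.67, 0.35 and 0.69. The base chaperones had 1 of 3 above 0. With DESeq2 size factors these counts were 5, 6, 2, 7 and 1, and the ATPase median turned to -0.12.

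Other cell types and depth moved with these comparisons, and their part in the result was not tested. Fibroblast markers (8 genes) summed to 618 to 2831 CPM per normal library, 87.6 to 823 CPM per hyperplasia library and 16.1 to 2313 CPM per carcinoma library, and had log2 fold changes below 0 for 7 of 8 and 8 of 8 genes. Adipocyte markers (6 genes) summed to 80.4 to 716, 0.247 to 94.8 and 0.926 to 12.8 CPM, and Cfd, a defining adipocyte gene and the 1 gene edgeR called in carcinoma versus normal gland, was at 0 in 4 of 5 hyperplasia and 8 of 9 carcinoma libraries. Macrophage markers (8 genes) summed to 392 to 2979, 82.1 to 959 and 86.2 to 908 CPM, and lymphocyte markers (7 genes) to 27.3 to 922, 0 to 27.4 and 0.261 to 699 CPM. In the other direction, luminal markers had log2 fold changes above 0 for 6 of 7 genes in hyperplasia and 7 of 7 in carcinoma (6 and 4 with DESeq2 size factors). The 6 proliferation genes were all above 0 in both (5 of 6 in carcinoma with DESeq2 size factors), summing to 146 to 244, 489 to 1170.5 and 196 to 729 CPM. The pooled normal libraries 28 and 30 had effective sizes of 3717284 and 4873515 counts and core scores, the mean log2(CPM + 1) over the core genes, of 5.83 and 5.62, and normal 18 had 11592217 counts and 6.43. Detected genes were most numerous in normal gland, at 16823 ± 679 (SD), against 14014 ± 2464 in hyperplasia and 15834 ± 1336 in carcinoma.

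Scores by stage set the particles side by side. Mean and SD of the core score were 5.96 ± 0.42 for normal gland, 6.72 ± 0.32 for hyperplasia, 6.70 ± 0.36 for adenoma, 6.64 ± 0.63 for carcinoma and 6.68 ± 0.57 for metastasis. The regulatory score was 5.29 ± 0.29, 5.49 ± 0.54, 5.58 ± 0.68, 5.80 ± 0.32 and 5.48 ± 0.48 in the same order. Tumour stages differed from each other by less than their SDs in both. The core exceeded the regulatory score in every library, by 0.10 (carcinoma 53) to 2.21 (adenoma 51). These scores are not corrected for transcript length.

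**Figure D2:**
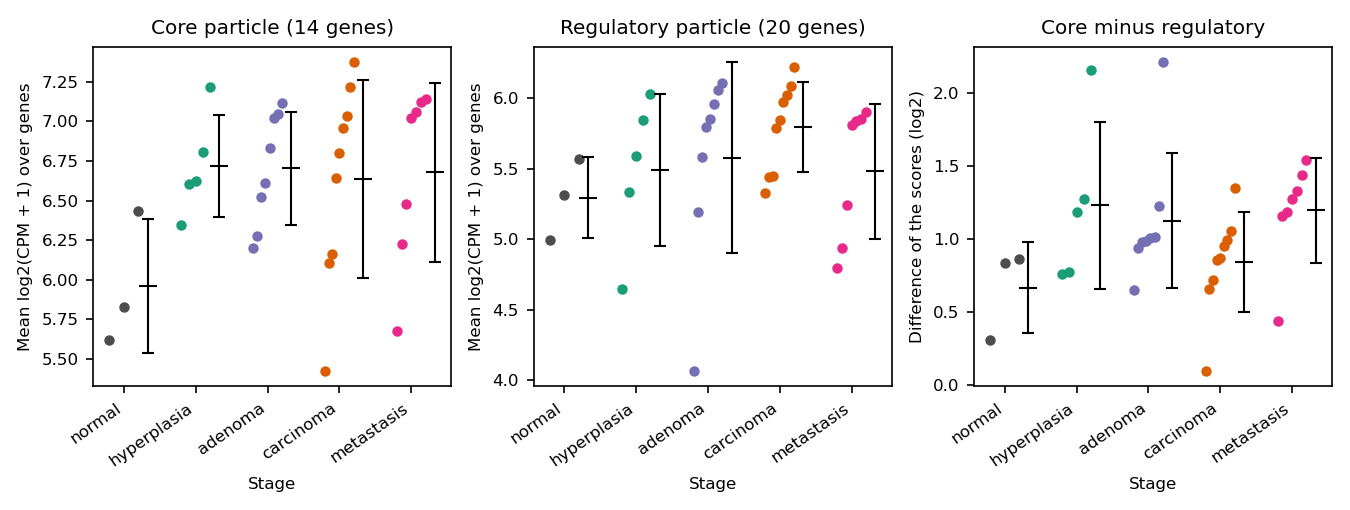
Mean log2(CPM + 1) over the 14 core genes and over the 20 regulatory genes by stage, one point per library, with bars for the mean and SD of each stage. The core mean is 5.96 in normal gland and 6.64 to 6.72 in the tumour stages, whose points overlap the highest normal library, and single low points stand out in adenoma (regulatory, 4.07) and carcinoma (core, 5.43).

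Between adenoma and hyperplasia the members split evenly. Log2 fold changes were above 0 for 18 of 34 members (7 core and 11 regulatory), beside 51.8% of all genes, with medians of -0.0026 over the core and 0.17 over the regulatory genes. The edgeR test called 0 members, beside 0% of genes, and 2 (5.88%) had unadjusted p under 0.05, beside 14.8% of genes. Neither DESeq2 nor limma voom called a member (0 and 0), beside 3.06% and 0.01% of genes. The smallest p on the higher side was that of the scaffold gene Psmd2, at 118 ± 115 CPM (SD, n = 8) against 51.8 ± 30.1 CPM (SD, n = 5), a log2 fold change of 1.19 (SE 0.53) with an edgeR adjusted p of 0.273. Without adenoma 51 it was 0.60. On the lower side it was the beta subunit Psmb2, at 69.3 ± 31.7 against 170.0 ± 118 CPM, a log2 fold change of -1.30 (SE 0.53) and an adjusted p of 0.221.

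Between carcinoma and adenoma 18 of 34 members again had log2 fold changes above 0 (6 core and 12 regulatory), beside 50.6% of all genes. The edgeR test called 0, beside 0% of genes, and 0 had an unadjusted p under 0.05, beside 12.5% of genes. With DESeq2 and limma voom 0 members passed, beside 1.35% and 0.0352% of genes. Psmb3, a beta subunit, had the smallest p on the higher side, with 79.7 ± 39.4 CPM against 44.3 ± 15.3 CPM (log2 fold change 0.85, SE 0.48, adjusted p 0.495). Psma7 had the smallest on the lower side, with 248.9 ± 104 CPM against 383 ± 175 CPM (log2 fold change -0.62, SE 0.31, adjusted p 0.401). In the alpha ring 2 of 7 genes were above 0, and in the lid 5 of 8.

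Between lung metastasis and carcinoma the members split evenly as well. Log2 fold changes were above 0 for 17 of 34 members, 10 of 14 core and 7 of 20 regulatory, beside 49.5% of all genes, with medians of 0.23 and -0.12. By edgeR 0 members were called, beside 0.0201% of genes, and 1 member (2.94%) had an unadjusted p under 0.05, beside 10.8% of genes. DESeq2 and limma voom called 0 members, beside 0.934% and 0.0954% of genes. The member with an unadjusted p under 0.05 was the ATPase gene Psmc4, at 117 ± 196 CPM (SD, n = 7) against 50.2 ± 25.1 CPM (SD, n = 9), a log2 fold change of 1.22 (SE 0.59) with an edgeR adjusted p of 0.438. Its direction rested on 1 library: without metastasis 42 the log2 fold change was -0.20. Psmd12 of the lid had the smallest p on the lower side, at 54.8 ± 46.1 CPM against 104 ± 97.7 CPM (log2 fold change -0.92, SE 0.63, adjusted p 0.691), and stood at -0.37 without carcinoma 39. Lung epithelial markers (6 genes) summed to 389 to 4563 CPM in metastasis and 0.253 to 13.2 CPM in carcinoma, and edgeR called 3 of them higher. The part of lung cells in the metastasis values was not tested.

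Tested over all 5 stages together with edgeR's quasi-likelihood F test, 0 of 34 members passed an adjusted p of 0.05, beside 5.15% of genes, and 1 (2.94%) had an unadjusted p under 0.05, beside 21.2% of genes. Neither DESeq2 nor limma voom called a member (0 and 0), beside 1.7% and 1.78% of genes. The smallest adjusted p were 0.189 for Psma7, 0.264 for Psmd8 and 0.331 for Psma1. A p that misses the threshold does not show that levels were the same: standard errors of the log2 fold changes ran from 0.31 to 0.91 in carcinoma versus adenoma, the comparison with most libraries.

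**Figure D3:**
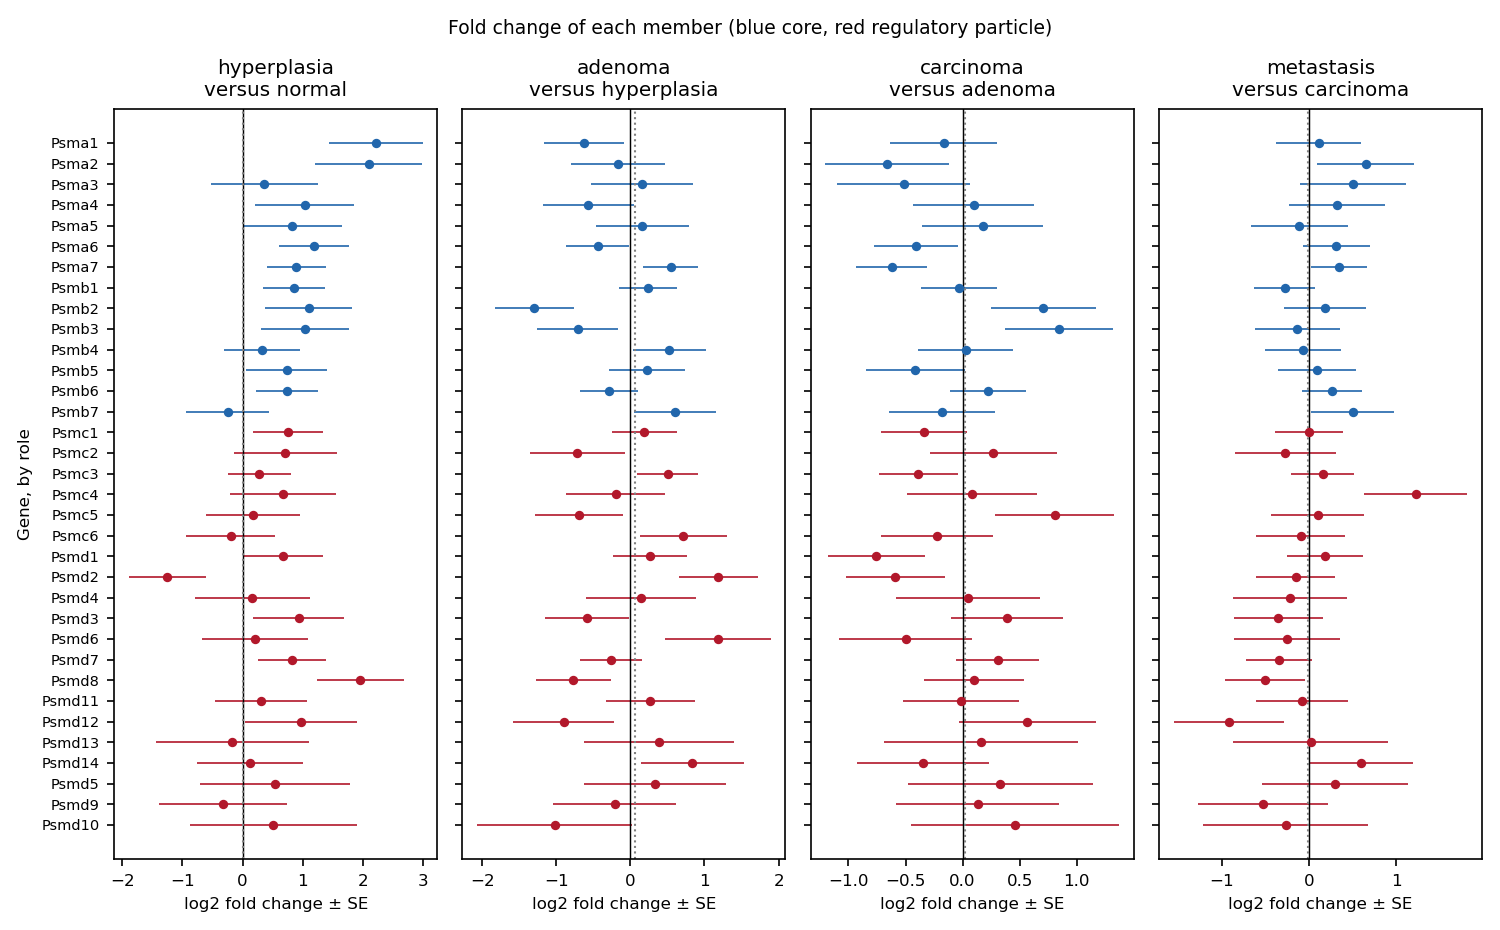
Log2 fold change with its SE for each member in the 4 successive stage comparisons, core genes in blue and regulatory genes in red, with a dotted line at the median of all genes tested. In hyperplasia versus normal gland 29 of 34 points lie above 0 (23 with DESeq2 size factors), and in the other 3 comparisons the points scatter around the dotted line (18, 18 and 17 above 0).

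By position within carcinoma, proteasome scores of core and border regions differed by less than their SDs. The core score was 6.59 ± 0.73 in 6 tumour core libraries and 6.72 ± 0.48 in 3 border libraries, and the regulatory score 5.78 ± 0.34 and 5.83 ± 0.35 (SD). Of the members 15 had log2 fold changes above 0, beside 55.1% of genes. The majority turned with single libraries: 9 were above 0 without carcinoma 54, and 20 without carcinoma 38, without carcinoma 55 or with log2 of the total count as a covariate. The edgeR test called 0 members, beside 0% of 22676 genes, and 1 (2.94%) had an unadjusted p under 0.05, beside 6.29% of genes. With DESeq2 and limma voom 0 members passed, beside 1.38% and 0.022% of genes. The member with the unadjusted p under 0.05 was the lid gene Psmd12, also the 1 member without overlap (2.94%, beside 0.732% of genes that were lower without overlap). It stood at 57.6, 76.9, 26.2, 74.9, 58.5 and 64.96 CPM in the tumour core and at 114, 355 and 105 CPM at the border. Every border library exceeded every core library, with a log2 fold change of -1.67 for core against border (SE 0.74) and an edgeR adjusted p of 0.751, and -0.84 without carcinoma 39. Psmd9, the base chaperone, had the smallest p on the higher side, at 39.9 ± 20.2 CPM against 15.3 ± 11.6 CPM (log2 fold change 1.38, SE 1.16, adjusted p 0.98).

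Within adenoma, 3 core and 3 border libraries were compared, and 2 further libraries lay outside tumour. The core score was 6.54 ± 0.28 in tumour core, 6.76 ± 0.48 at the border and 6.87 ± 0.36 outside, and the regulatory score 5.17 ± 0.96, 5.68 ± 0.45 and 6.04 ± 0.11 (SD). The low regulatory mean in tumour core came with adenoma 51 at 4.07, against 5.59 and 5.85 in the other 2 core libraries. Log2 fold changes were above 0 for 11 of 34 members (18 with upper quartile scaling), beside 43.7% of genes. By edgeR 0 members were called, beside 0.00441% of genes, and 1 (2.94%) had an unadjusted p under 0.05, beside 9.8% of genes. DESeq2 and limma voom called 0 members, beside 5% and 0.154% of genes.

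The 1 adenoma member with an unadjusted p under 0.05 was the beta subunit Psmb4, at 150.3, 116 and 16.3 CPM in the core and 94.2, 282 and 516 CPM at the border. These overlapped, with a log2 fold change of -1.66 (SE 0.67) and an edgeR adjusted p of 0.502. The scaffold gene Psmd2 had the smallest p on the higher side (log2 fold change 1.14, SE 0.80, adjusted p 0.605), and without adenoma 51 it turned to -0.23. Groups were free of overlap for 2 members, Psmb2, higher in the core at 76.3 ± 6.32 against 43.9 ± 9.89 CPM (beside 3.49% of genes higher without overlap), and Psma2, lower at 127 ± 7.67 against 213 ± 63.6 CPM (beside 2.35%). At 1 of 34 (2.94%) each way these shares are near the background. The difference between the carcinoma and the adenoma contrast of core and border was also tested: edgeR called 0 of 34 members, beside 0.00441% of genes, with 0 at an unadjusted p under 0.05 and a smallest adjusted p of 0.754.

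Metastases at the border of the lung (n = 4) were compared with those at its centre (n = 3). The core score was 6.58 ± 0.66 and 6.81 ± 0.51, and the regulatory score 5.47 ± 0.45 and 5.50 ± 0.62 (SD). Log2 fold changes were above 0 for 13 of 34 members, beside 56.8% of genes, with medians of -0.32 over the core and -0.19 over the regulatory genes against 0.30 over all genes. In the comparisons by position this background is all genes tested, and not genes detected as widely as the members. With limma voom 8 members were above 0. The edgeR test called 0 members, beside 0% of genes, and 2 (5.88%) had an unadjusted p under 0.05, beside 9.23% of genes. DESeq2 called 1 member, beside 3.26% of genes, and limma voom 0, beside 0.0529%.

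The member that DESeq2 called was the ATPase gene Psmc4, at 12.2, 51.6, 64.3 and 42.6 CPM at the lung border and 49.9, 559 and 39.9 CPM at the lung centre. One centre library, metastasis 42, was far above all others, and the rest overlapped. The log2 fold change was -2.34 (SE 0.87) with an edgeR adjusted p of 0.535, -2.64 with a DESeq2 adjusted p of 0.025, and -0.07 by edgeR without metastasis 42. The trypsin-like subunit gene Psmb7, the other member with an unadjusted p under 0.05, was highest in the same library, at 469 CPM (log2 fold change -1.64, edgeR adjusted p 0.535). Psma1 had the smallest p on the higher side, with 211 ± 199.6 CPM at the border and 94.7 ± 60.7 CPM at the centre (log2 fold change 1.15, SE 0.78, adjusted p 0.626), and 0.33 without metastasis 57. Groups did not overlap for Psmd11 of the lid, higher at the border with 77.6 ± 48.6 against 39.7 ± 5.84 CPM, or for the ATPase gene Psmc5, lower with 64.5 ± 8.06 against 88.9 ± 15.9 CPM. That is 1 of 34 (2.94%) each way, beside 1.62% and 1.31% of genes.

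Core genes were weakly and mostly positively correlated with each other across regions. After stage means were removed, Pearson's r over the 32 libraries had a median of 0.22 over the 91 core pairs, of which 81.3% were positive. It was 0.12 over the 190 regulatory pairs (66.8% positive) and 0.18 over the 280 pairs of a core and a regulatory gene (72.5%). Over all pairs of genes of 5 CPM or more it was 0.02 (54.2%), and over those with a count in all libraries 0.03 (55.1%). Without the 3 libraries with fewest genes the core pairs had a median of 0.36 and were all positive. Over all 32 libraries, Psma7 followed the rest of its particle with an r of 0.61, Psma1 with 0.64 and Psmd4 with 0.68. Psmd2 had -0.13, Psmc3 0.03 and Psmb7 0.09. Psmd4 was lowest, at 0.228 CPM and 0.285 CPM, in hyperplasia 22 and adenoma 51, which had the lowest regulatory scores of their stages. These correlations are descriptions: the libraries share animals, and each library's depth and composition enter every pair.

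The lowest core scores lay in small effective libraries, though not every small library was low. With stage means removed, Pearson's r with log2 of the total count was 0.54 for the core and 0.45 for the regulatory score. Without the 3 libraries with fewest detected genes it was 0.53 and 0.64. The core minus regulatory score had an r of -0.56 with detected genes, and of -0.28 without those 3. Scores under 6 occurred in 4 libraries: carcinoma 53 (5.43, effective size 4310791 counts), normal 30 (5.62), metastasis 40 (5.68, 4989535 counts) and normal 28 (5.83). Other small libraries stood higher, with adenoma 51 at 6.28, metastasis 42 (3700977 counts) at 6.23 and adenoma 47 (3936454 counts) at 6.2. The excess of the core over the regulatory score was largest in adenoma 51 (2.21) and hyperplasia 22 (2.16), both among the 3 libraries with fewest detected genes, and 1.44 in metastasis 42, the third of them. Total counts include the gene without a symbol that took the largest share in every library, so they differ from effective sizes. The fits given above took log2 of the total count or detected genes as covariate, and not the effective size. Beyond those fits the part of depth in the scores was not tested, and the part of effective size was not tested.

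**Figure D4:**
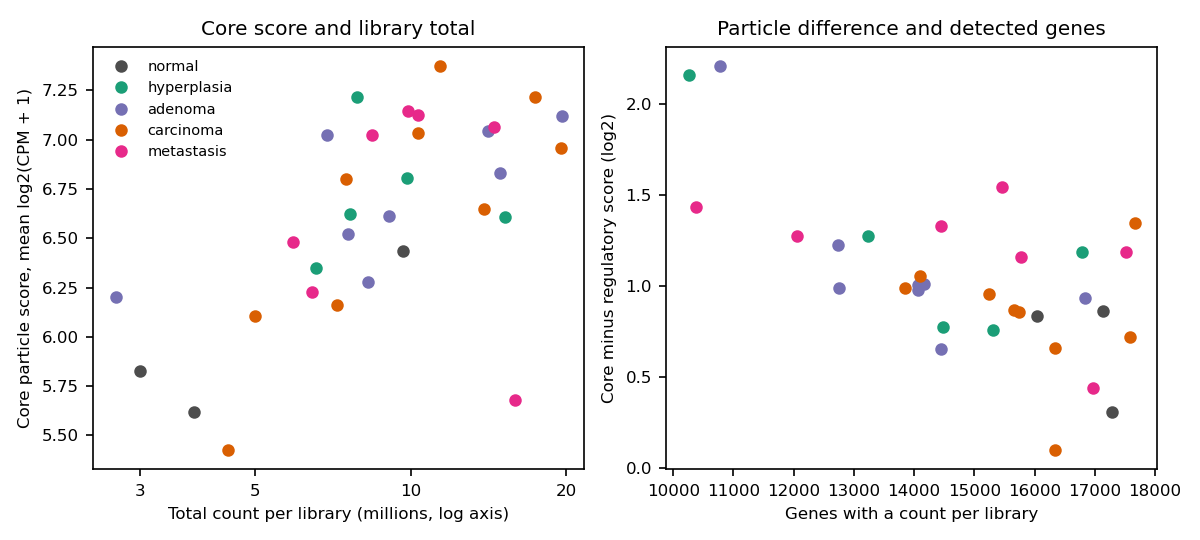
Left, core score against total count (log axis); right, core minus regulatory score against the number of detected genes, one point per library coloured by stage. Metastasis 40 has a low core score despite 15884714 counts, of which 78.9% belong to 1 gene, and the 2 largest excesses of core over regulatory score belong to adenoma 51 and hyperplasia 22, both among the 3 libraries with fewest detected genes.

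Of the genes around the constitutive proteasome, edgeR called 0 in any comparison. Directions below are those of log2 fold changes under TMM scaling, and those in hyperplasia rested in part on hyperplasia 46. Most genes with a count in all libraries also lay above 0 in both comparisons with normal gland. The sign counts below are to be read beside those shares, given above. The immunoproteasome subunits Psmb8, Psmb9 and Psmb10 replace the catalytic subunits under interferon. In hyperplasia versus normal gland 3 of 3 lay above 0 (median 0.21), but 0 of 3 did without hyperplasia 46 (median -1.10) and 0 of 3 with DESeq2 size factors (-0.26). Psmb8 stood at 609.5 CPM in hyperplasia 46, at 36.1 to 78.1 CPM in the other 4 hyperplasia libraries and at 67.5 to 151.9 CPM in normal gland. In carcinoma versus normal gland 3 of 3 lay above 0 (median 1.47), also with each library left out in turn and with DESeq2 size factors, and 2 of 3 with log2 of the total count as a covariate (median 0.28). Psmb8 stood there at 475 against 123 CPM (log2 fold change 1.95, SE 1.32, adjusted p 0.719), and at 0.39 in the lowest of the other settings.

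Of the activators and inhibitor Psme1 to Psme4 and Psmf1, 4 of 5 lay above 0 in hyperplasia and 5 of 5 in carcinoma versus normal gland (medians 0.54 and 0.65). The first median was 0.05 without hyperplasia 46, and with DESeq2 size factors they were 0.09 and 0.11 (4 of 5 and 3 of 5). Psme4 had the smallest p in hyperplasia (1.38, adjusted p 0.473, and 0.38 without hyperplasia 46) and Psme1 in carcinoma (0.88, adjusted p 0.724). Of the assembly factors Psmg1 to Psmg4 and Pomp, which help to build the core, 5 of 5 lay above 0 in both (0.56 and 0.76). With DESeq2 size factors 4 of 5 did in both. The hyperplasia medians of 0.54 for the activators and 0.56 for the assembly factors were close to that of genes with a count in all libraries. In carcinoma the medians of 0.65 and 0.76 lay above that of such genes. Without hyperplasia 46, Pomp turned from 0.14 to -0.40 and Psmg1 went from 2.04 to 0.45. Psmg4 had a log2 fold change of 1.73 in carcinoma versus normal gland (adjusted p 0.614). Of the other particle parts Adrm1, Uchl5, Sem1, Usp14 and Ecpas, 5 of 5 and 4 of 5 lay above 0, 3 of 5 and 2 of 5 with DESeq2 size factors, and 2 of 5 in hyperplasia without hyperplasia 46 (median -0.19 against 0.48). The deubiquitinase gene Uchl5 stood at 85.9 CPM in hyperplasia against 17.5 CPM in normal gland (2.30, adjusted p 0.27), and its log2 fold change ran from 1.59 to 2.50 with each library left out. Among 10 genes for ubiquitin and its delivery, 9 and 8 lay above 0 (8 and 6 with DESeq2 size factors). The shuttle factor gene Rad23b led them at 85.6 against 19.2 CPM in hyperplasia versus normal gland (2.15, adjusted p 0.269), with 1.69 to 2.37 when each library was left out.

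Of the regulators Nfe2l1, Nfe2l2, Ddi2 and Ngly1, 1 of 4 lay above 0 in hyperplasia and 2 of 4 in carcinoma versus normal gland (0 and 1 with DESeq2 size factors), with medians of -0.31 and -0.22 that turned to 0.17 and 0.21 without normal 28. Nfe2l1, the main known activator of proteasome genes, had a log2 fold change of 1.41 in adenoma versus hyperplasia (edgeR adjusted p 0.198), where the members' median was 0.15, and 0.80 without adenoma 36. Nfe2l2 stood at 69.7 CPM in metastasis and 13.4 CPM in carcinoma (2.37, SE 0.72, edgeR adjusted p 0.205), where the members' median was 0.01. DESeq2 called it higher there (2.57, adjusted p 0.00836).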

How the data were processed

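Geo-seq style libraries of laser-cut regions were analysed in 32 samples of 5 tumour stages. The authors deposited raw read counts per gene as 1 table with 24454 NCBI gene IDs. Per the submitters' processing notes STAR and mm10 were used, and the sources used here name no counting program, annotation or strand setting. Symbols came from RefSeq (GRCm38.p6), which matched 24374 IDs and left 80 without one. No column of the table was without a sample.

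Counts were tested as deposited with edgeR 4.0.16 (R 4.3.3): TMM scaling, filterByExpr (19907 genes by stage, 22676 by stage and position), robust quasi-likelihood fits over all 32 libraries (common dispersion 2.64), two-sided tests, and Benjamini-Hochberg adjustment over all genes tested at 0.05. CPM use TMM effective library sizes. Scores are means of log2(CPM + 1), and levels per kb use the longest principal transcript. DESeq2 1.42.0 and voom with sample weights (limma 3.58.1) served as alternatives, beside other scalings, no filter, covariates and left-out libraries. For the pathway, role and marker lists these were added after the data were seen. The scripts were tested on simulated data. Groups follow the labels.

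The members and lists were chosen with earlier results of these data known. Named in full are Psmb5, Psmb6, Psmb7, Psma1, Psmc2, Psmd1, Psmd4 and Psmd14, and in each comparison the member of smallest p each way. Psmd8, Psma2, Psma6, Psmb7, Psmd11 and Psmc5 are also named in comparisons for their unadjusted p or lack of overlap, chosen after their values were seen. Total counts per library ran from 2688611 to 19585351. Regions share animals that the labels do not name, so p-values measure the spread between regions and are too small. Protein sequences were not used here.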

Additional observations from a re-analysis of the deposited data

Results flagged for a closer look

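In 120 groups of 4 to 10 values, 20 values stood apart from the others of their group by Dixon's gap criterion, which chance meets in about 1 group in 20. That rate is for separate groups of normally distributed values, whereas groups here shared libraries, as carcinoma core lies within carcinoma. Scores stood apart in 2 libraries. Adenoma 51 had the lowest regulatory score of the adenomas (4.07, the next 5.19) and the largest excess of core over regulatory score (2.21, the next 1.23). Metastasis 40 had the smallest such excess among the metastases (0.44, the next 1.16).

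Single genes gave the other values. Metastasis 42 was highest of the metastases for Psmb7 (469 CPM, the next 107) and Psmc4 (559 CPM, the next 64.3). Metastasis 57 was highest for Psma1 (484 CPM), and for Psmd1 among lung border libraries (208 CPM). Metastasis 58 was highest among lung border libraries for Psmb3 (85.3 CPM) and Psmd12 (87.3 CPM). Adenoma 36 was highest of the adenomas for Psmd1 (457 CPM), Psmd14 (186 CPM) and Psmd12 (235 CPM), and adenoma 51 for Psmd2 (398 CPM). Carcinoma 54 was highest of the carcinomas for Psma1 (337 CPM), carcinoma 39 for Psmd12 (355 CPM) and carcinoma 55 for Psmb4 (524 CPM). Among the carcinoma core libraries, carcinoma 38 was lowest for Psmd2 (21.6 CPM) and carcinoma 53 for Psmb4 (37.3 CPM). Hyperplasia 46 was highest of the hyperplasias for Psmd12 (368 CPM) and Psmd9 (93.6 CPM). The gene with most such values was Psmd12, in 4 groups.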

How the results depend on the processing

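Of 840 values under other settings, 832 kept their direction and their side of the threshold, or, for values with no test, stayed within the spread between libraries. For values with no test this is a weak check. The pooled within-stage SD of the scores, 0.50 for both particles, exceeded the TMM regulatory medians in both comparisons with normal gland. Such medians could reach 0 and still count as kept. Counts of 0 members called were also easily kept where edgeR called few or no genes at all. The count of members called was 0 in all comparisons under all settings but 1: DESeq2 called 1 member, Psmc4, in metastasis at the lung border versus the lung centre (log2 fold change -2.64, adjusted p 0.025). Psmc4 in metastasis versus carcinoma turned from 1.22 to -0.12 with limma voom, to -0.20 without the 3 libraries with fewest detected genes and to -0.20 without metastasis 42, the other left-out libraries giving up to 1.49. Psmd2 in adenoma core versus border turned from 1.14 to -0.11 with voom, -0.21 without those 3 libraries and -0.23 without adenoma 51, the others giving up to 1.53. The cause was not tested beyond these left-out libraries. With each library left out in turn, the core median ran from 0.61 to 1.23 in hyperplasia and from 0.52 to 1.17 in carcinoma versus normal gland, and the regulatory median from 0.28 to 0.57 and from 0.26 (without carcinoma 39) to 0.65, all 4 highest without normal 18. The number of members above 0 ran from 26 to 30 and from 28 to 32, from 15 to 19 in adenoma versus hyperplasia, 13 to 20 in carcinoma versus adenoma and 13 to 21 in metastasis versus carcinoma. By position it ran from 9 to 20 in carcinoma, 10 to 16 in adenoma and 10 to 14 in metastasis. Psmc4 between lung border and centre ran from -2.83 to -0.07, and Psma1 in hyperplasia versus normal gland from 1.60 to 2.87. Scaling moved the regulatory genes more than any left-out library did. In hyperplasia and carcinoma versus normal gland 16 and 17 of 20 lay above 0 with TMM, but 11 and 10 with DESeq2 size factors. Core genes went from 13 and 14 of 14 to 12 and 11. Relative to the median of all genes, 29 members were higher in both with DESeq2 size factors. No paired analysis was possible because no label ties a region to an animal. Small effective libraries and the strong spread between regions (common dispersion 2.64) limit what could be detected.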
